A study of Homo sapiens with 4 samples.

Results

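The genes described here are 10 genes of macrophage lipid handling and of the liver X receptor (LXR) pathway: APOC1, APOC2, APOE, LPL, ABCA1, ABCG1, NR1H3, PPARG, CES1 and PLIN2. They were taken by symbol from the 20348 Ensembl genes of the deposited count table, and all 10 were found. They were followed in K562, a line from human chronic myeloid leukemia that has erythroid features, and in THP-1, a human monocytic acute myeloid leukemia line. Each line was kept for 72 h in DMSO (called control blank in the sample titles) or in 100 nM periplocin, a cardiac glycoside of the plant Cortex periplocae. The THP-1 cells came from another laboratory and the K562 cells from a cell bank, and neither line carries a genetic change made for the study. Dose and time come from the study's methods, not from the sample labels. Poly-A RNA was sequenced with 1 library per condition, 4 libraries in all, so no difference below has a replicate check. Except in the fit over all 4 libraries and where a dispersion is assumed, intervals and p-values cover counting error only and compare these libraries, not the conditions. In bulk RNA, fewer cells that express a gene and less RNA of it per cell cannot be told apart.

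Macrophages that take up lipoproteins must store, break down or export the cholesterol they receive. Oxidized cholesterol activates LXR, a nuclear receptor that pairs with the retinoid X receptor (RXR) and switches on export pumps of the ABC family and apolipoproteins that accept the exported lipid, while SREBP2 drives cholesterol synthesis and uptake when the cell is short of sterol. PPARG is a fatty acid-sensing nuclear receptor that also pairs with RXR and is known in macrophages for inducing fatty acid uptake and storage genes. APOE, APOC1 and APOC2 lie in a cluster on chromosome 19 that macrophage LXR is known to control, together with ABCA1, ABCG1 and LPL.

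RefSeq promoter windows were matched for 7 of the 10 genes and not for ABCG1, LPL and CES1. Of 17 such windows, each 300 bases long on GRCh38.p14 from 250 bases before a start site to 50 after it, those of ABCA1, APOC2, APOC1 and APOE are shown because the first and second hold the closest matches to the element that LXR and RXR are known to bind and the others belong to neighbouring genes that responded unlike each other. That element, called DR4, is a direct repeat of AGGTCA with 4 bases between the copies, and PPARG and RXR are known to bind the same repeat with 1 base between the copies (DR1). Capitals mark the 12 repeat bases of a DR4 match with at most 3 mismatches, which here read as the reverse complement of the element. The ABCA1 window is chr9:104928106-104928405 on the minus strand, and the others lie on the plus strand at chr19:44945801-44946100 (APOC2), chr19:44914422-44914721 (APOC1) and chr19:44905546-44905845 (APOE).
ABCA1: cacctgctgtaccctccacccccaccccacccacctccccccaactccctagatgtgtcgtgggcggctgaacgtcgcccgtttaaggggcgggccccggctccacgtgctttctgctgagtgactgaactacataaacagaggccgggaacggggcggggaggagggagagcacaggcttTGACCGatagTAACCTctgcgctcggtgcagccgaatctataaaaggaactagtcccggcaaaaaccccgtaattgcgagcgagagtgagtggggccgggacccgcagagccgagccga
APOC2: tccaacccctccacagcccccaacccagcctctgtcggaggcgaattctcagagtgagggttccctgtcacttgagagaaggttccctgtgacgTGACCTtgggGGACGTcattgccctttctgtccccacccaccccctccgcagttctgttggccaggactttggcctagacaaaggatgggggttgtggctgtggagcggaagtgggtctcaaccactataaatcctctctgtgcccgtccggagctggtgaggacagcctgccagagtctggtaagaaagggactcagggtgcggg
APOC1: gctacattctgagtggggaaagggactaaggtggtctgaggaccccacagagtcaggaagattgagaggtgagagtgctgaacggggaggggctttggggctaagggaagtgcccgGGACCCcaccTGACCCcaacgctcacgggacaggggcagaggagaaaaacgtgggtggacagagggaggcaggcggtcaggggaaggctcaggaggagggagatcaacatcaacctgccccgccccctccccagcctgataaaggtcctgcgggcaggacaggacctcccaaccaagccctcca
APOE: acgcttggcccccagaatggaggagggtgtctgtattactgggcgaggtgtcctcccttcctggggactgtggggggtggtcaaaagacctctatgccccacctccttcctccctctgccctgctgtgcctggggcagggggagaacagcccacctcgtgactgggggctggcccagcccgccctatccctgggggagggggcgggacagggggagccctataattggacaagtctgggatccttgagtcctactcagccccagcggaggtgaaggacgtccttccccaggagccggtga

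Counted from 0 at the start site, the match began at -69 in ABCA1 and at -156 in APOC2, with 2 mismatches each, and at -134 in APOC1 with 3. No match lay in the APOE windows, and a further match with 3 mismatches lay in 1 of the PPARG windows. Searched on both strands, such a DR4 match is present in 4 of the 17 windows and in 18.6% of all 35116 RefSeq windows. One with at most 2 mismatches is present in 2 of the 17 and in 2.34% of all. DR1 matches with at most 3 mismatches were found for APOC2, ABCA1, NR1H3 and PPARG, in 5 of the 17 windows, beside 20.9% of all windows. In ABCA1 and APOC2 they overlapped the DR4 match. CACGTG, a core bound by several basic helix-loop-helix factors, was present in the ABCA1 and PLIN2 windows and in 7.26% of all windows. TATAAA was present in the windows of APOC2 and ABCA1, and on the opposite strand, where the window reads TTTATA, in windows of PPARG and PLIN2. On either strand it is present in 5 of the 17 windows and in 11.5% of all windows. A match describes letters in a window and not a site in use.

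The libraries held between 16381172 and 20622719 counts, and the share of mitochondrially encoded counts ranged from 2.07% in K562 periplocin to 5.62% in K562 DMSO. A gene was called higher or lower when it differed by 2-fold or more and its Benjamini-Hochberg adjusted p in edgeR's exact binomial test was under 0.05. The labels of the lines were checked against marker genes. Summed over 12 monocyte and myeloid markers, the level was 2123 and 2843 CPM (counts scaled to the library total) in THP-1 DMSO and periplocin and 93.8 and 90.2 CPM in K562, with 3 called higher and 1 lower by periplocin in THP-1 and 1 higher and 3 lower in K562. Summed over 12 erythroid markers it was 2447 and 12480 CPM in K562 and 11.4 and 9.42 CPM in THP-1, where 2 were called lower. Of 10 hepatocyte markers, APOB, FGB and AHSG had 0 counts in all 4 libraries and ALB had at most 7, and 0 were called in either line. The list was not silent, since TF had 848 and 971 counts in K562 DMSO and periplocin and 295 and 352 in THP-1. SERPINA1 had 42 and 43 counts in THP-1. Of 20 macrophage markers, 4 were higher in K562 periplocin, and 8 were higher and 1 lower in THP-1 periplocin, with a summed level of 1030 CPM in DMSO and 1980 in periplocin, while CD163, MRC1, CHIT1 and the complement genes C1QA, C1QB and C1QC had at most 5 counts in either THP-1 library. Those that rose included CD14 (8 to 382 counts), SPP1 (97 to 557) and GPNMB (96 to 1885). They moved in the same libraries as the rises below, and their part in those was not tested. Of 6 adipocyte markers 1, FABP4, was higher in THP-1. With CD163 and the complement genes near 0, the word macrophage here refers to where these genes are known from and not to the cells.

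In THP-1, 6 of the 10 genes were higher in periplocin by at least 2-fold and none was lower. The largest ratio was that of ABCG1, at 10.99, followed by PPARG at 4.49, APOE at 3.42, ABCA1 at 2.76, APOC2 at 2.58 and PLIN2 at 2.31. CES1 was 1.83 times its DMSO level, and NR1H3, LPL and APOC1 stayed within counting error. In K562, APOE was higher, LPL was lower from a low level, while APOC2, ABCA1, ABCG1, PPARG and CES1 had at most 8 counts in either library. By the rule for calls, 8.28% of 16020 tested genes were called higher and 9.76% lower in THP-1, and 8.18% of 15919 tested genes were called higher and 10.1% lower in K562. These shares are also the background for the counts of called genes in the lists and marker sets. With 6 of 10 genes called higher, THP-1 lay above its background, whereas 1 higher and 1 lower of the 8 genes tested in K562 lay near it. The 10 genes were chosen with earlier results of these data known. Their shares and medians therefore describe the genes and do not test them against this background. The median log2 fold change of the 10 genes in THP-1 was 1.29, beside -0.03 over all 14328 genes with more than 3 counts in either library. In K562 it was 0.64 over the 7 such genes, beside -0.01 over 13835 genes.

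**Figure D1:**
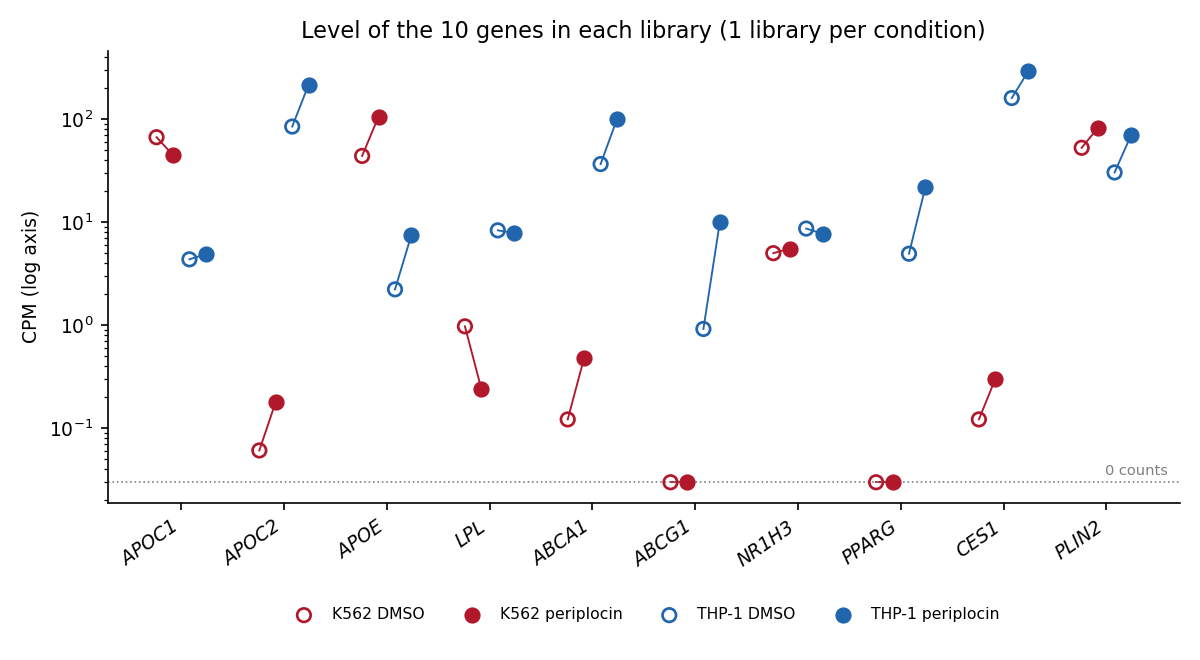
Level of each of the 10 genes in CPM on a log axis, with 1 point for each library (open, DMSO; filled, periplocin; red, K562; blue, THP-1) and a line joining the libraries of a line; points on the dotted line had 0 counts. APOC1 and APOE are the genes that stand higher in K562 by at least 2-fold, ABCG1 and PPARG are at 0 in K562, and the steepest rise is that of ABCG1 in THP-1, from 0.921 to 10.04 CPM.

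**Figure D2:**
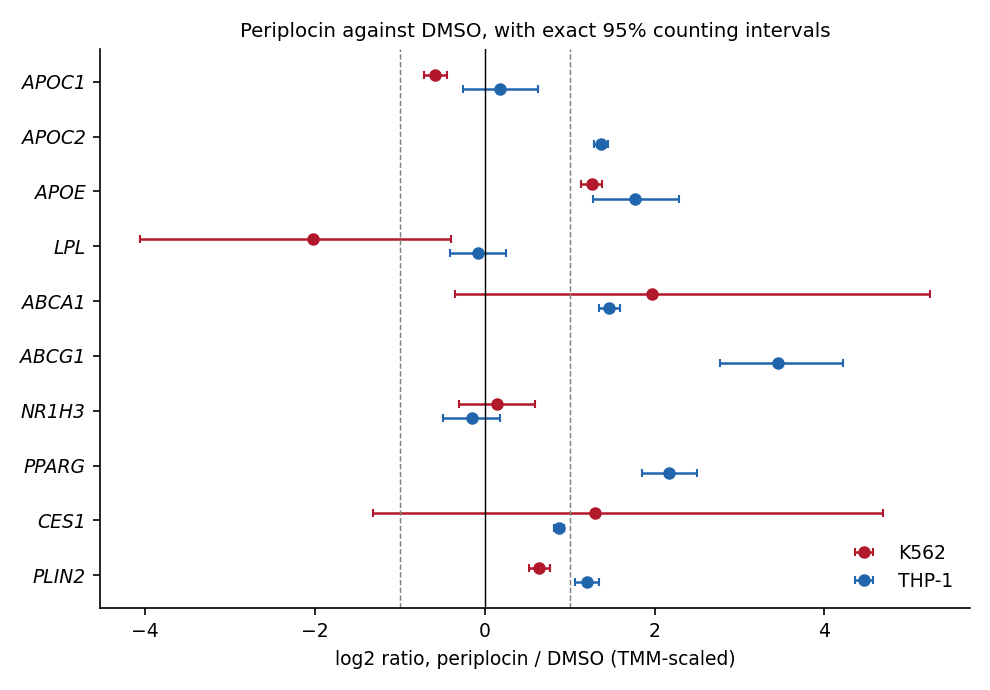
Periplocin to DMSO ratio of each gene on a log2 scale after TMM scaling, in K562 (red) and THP-1 (blue), with exact 95% counting intervals as bars; dashed lines mark a 2-fold change, and genes at or under 3 counts in both libraries are left out. In THP-1 the intervals of 6 genes lie wholly above a log2 ratio of 1, while NR1H3, LPL and APOC1 cross 0.

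The receptor genes stand at the head of the pathway. NR1H3 encodes LXR alpha, an LXR known from macrophages and liver (ENSG00000025434, chromosome 11, 47248300 to 47269032 on the plus strand of GRCh38, 35 annotated transcripts). Its counts were 82 (DMSO) and 92 (periplocin) for K562, and 179 (DMSO) and 137 (periplocin) for THP-1. These are 5.01, 5.56, 8.68 and 7.73 CPM, so the levels lay within 2-fold of each other in all 4 libraries. NR1H2, the gene of LXR beta, had more counts in each, at 29.1, 57.1, 36.2 and 48.8 CPM in the same order, not scaled to length. The log2 fold change of NR1H3 was 0.14 in K562 (adjusted p = 0.645) and -0.16 in THP-1 (adjusted p = 0.464, exact binomial test). The 95% counting interval of the NR1H3 ratio in THP-1 ran from 0.714 to 1.13. Of its span, 607 bases overlap ACP2 on the opposite strand, and no source used here states that reads were counted by strand, so reads there could belong to either gene.

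PPARG (ENSG00000132170, chromosome 3, 12287368 to 12434356, plus strand) was not detected in K562, with 0 counts in both libraries, which allows up to 3. In THP-1 it rose from 102 to 390 counts, or from 4.95 to 22.01 CPM, a ratio of 4.49 with a counting interval of 3.60 to 5.64 (log2 fold change 2.16, adjusted p = 2.15e-50, exact binomial test). The log2 fold change of PPARG exceeded that of NR1H3 by 2.32 in the same libraries (interval 1.87 to 2.77). The 2 receptor genes, which had similar levels per kilobase in THP-1 DMSO (2.44 CPM per kilobase for PPARG and 3.18 for NR1H3), thus stood at 10.9 and 2.83 in THP-1 periplocin.

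ABCA1, the pump that loads cholesterol and phospholipid onto lipid-poor apolipoproteins, spans 147236 bases of chromosome 9 (ENSG00000165029, 104781002 to 104928237, minus strand, 50 exons in its longest coding transcript). It rose in THP-1 from 756 to 1778 counts, or from 36.7 to 100.3 CPM, a ratio of 2.76 (interval 2.53 to 3.01, log2 fold change 1.46, adjusted p = 1.25e-131, exact binomial test). In K562 it had 2 and 8 counts, a ratio of 3.93 whose interval of 0.784 to 38.0 includes no change. K562 was therefore almost without ABCA1 in either condition.

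ABCG1, the pump that passes cholesterol to mature high density lipoprotein, had the largest ratio of the 10 genes in THP-1 (ENSG00000160179, chromosome 21, 42199689 to 42297244, plus strand). It rose from 19 to 178 counts, or from 0.921 to 10.04 CPM, a ratio of 10.99 (interval 6.84 to 18.7, log2 fold change 3.45, adjusted p = 1.27e-38, exact binomial test). In K562 it had 0 counts in both libraries. In THP-1 its log2 fold change was greater than that of ABCA1 by 1.99 (interval 1.3 to 2.69), yet its level per kilobase stayed below that of ABCA1, at 2.89 against 9.56 CPM per kilobase in periplocin.

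The apolipoprotein genes lie within 43812 bases of chromosome 19 in the order APOE, APOC1, APOC2, all on the plus strand. APOE, the ligand by which remnant lipoproteins and macrophage particles are taken up by receptors of the LDL receptor family (ENSG00000130203, 44905754 to 44909393), rose in both lines. For K562 the counts were 720 and 1755, or 44.0 to 106 CPM, a ratio of 2.39 (interval 2.19 to 2.61, log2 fold change 1.26, adjusted p = 1.34e-93). For THP-1 they were 46 and 134, or 2.23 to 7.56 CPM, a ratio of 3.42 (interval 2.43 to 4.89, log2 fold change 1.77, adjusted p = 6.07e-14, exact binomial test). It was the only gene of the 10 called higher in both lines by these tests. Of the others called higher in THP-1, APOC2, ABCA1, ABCG1 and PPARG had at most 8 counts in K562, where a 2-fold change is not detectable. PLIN2 also rose in K562, by a ratio of 1.56 that is under the threshold. The level of APOE in K562 DMSO was above that in THP-1 periplocin. The log2 fold changes differed between the lines by 0.51, with a counting interval of 0.01 to 1.01. In K562 the rise stood beside that of the erythroid markers, 11 of 12 of which were also called higher, and their part in it was not tested.

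APOC1, a small apolipoprotein known to slow the receptor uptake of remnants (ENSG00000130208, 44914247 to 44919349), starts 4854 bases after the end of APOE. K562 held 1094 counts in DMSO and 743 in periplocin, or 66.8 to 44.9 CPM, a ratio of 0.667 (interval 0.607 to 0.733, log2 fold change -0.58, adjusted p = 3.95e-17), which is under the 2-fold threshold. In THP-1 it had 90 and 87 counts, or 4.36 and 4.91 CPM, a ratio of 1.13 (interval 0.835 to 1.54, adjusted p = 0.510, exact binomial test). Neighbouring genes thus differed in response. The log2 fold change of APOE was above that of APOC1 by 1.84 in K562 (interval 1.66 to 2.03) and by 1.59 in THP-1 (interval 0.95 to 2.24). In K562 the order of their levels turned, from 96.9 CPM per kilobase for APOC1 and 36.4 for APOE in DMSO to 65.1 and 87.7 in periplocin.

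APOC2, the cofactor that lipoprotein lipase needs for activity (ENSG00000234906, 44945982 to 44949565), had 1 and 3 counts in K562 and was abundant in THP-1. There it rose from 1748 to 3839 counts, or 84.8 to 216.6 CPM, a ratio of 2.58 (interval 2.43 to 2.73, log2 fold change 1.37, adjusted p = 8.02e-255, exact binomial test). Per kilobase it had the highest level of the 10 genes in both THP-1 libraries, at 96.3 and 246.2 CPM per kilobase, and in periplocin it exceeded 99.2% of 19490 coding genes. The whole APOC2 gene lies within the annotated readthrough gene APOC4-APOC2 on the same strand, so reads of shared exons could be assigned to either gene. APOC4-APOC2 had 555 and 642 counts in THP-1, and the sum of both genes was 2303 in DMSO and 4481 in periplocin (log2 fold change 1.19). APOC4 itself had at most 2 counts in any library.

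The genes around the cluster did not all move in the same direction. Of 11 other genes around APOE, from BCL3 to GEMIN7 and with APOC4 inside the cluster, 10 were tested in K562 and 9 in THP-1. In K562 0 were called. Only BCL3, a nuclear partner of NF-κB, was called in THP-1, where it rose from 125 to 300 counts (log2 fold change 1.49). Over all tested genes, 8.18% were called higher and 10.1% lower in K562, and 8.28% and 9.76% in THP-1. So few calls among so few genes lie near these shares. TOMM40, a mitochondrial import gene whose midpoint lies 10.4 kb before that of APOE, had 1369 and 1114 counts in K562 (log2 fold change -0.32) and 1430 and 622 in THP-1 (-0.97). On the other side, CLPTM1 had log2 fold changes of 0.62 in K562 and 0.27 in THP-1, RELB of 0.88 and 0.23, CLASRP of 0.89 and -0.13, ZNF296 of 0.95 and 0.46, and GEMIN7 of -0.64 and -0.24. NECTIN2 had -0.49 and 0.09 and BCAM 0.42 and -0.17, all under the threshold, and CBLC had 0 counts throughout.

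**Figure D3:**
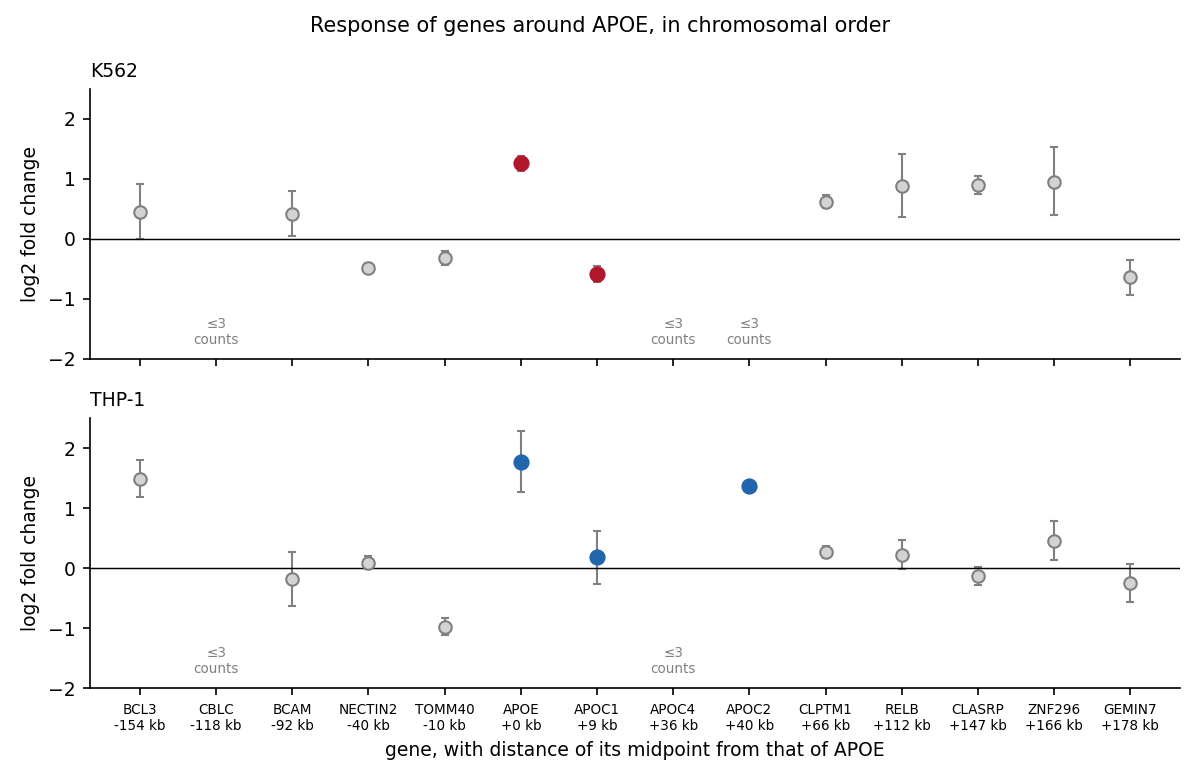
Log2 fold change of periplocin against DMSO for genes around APOE in chromosomal order, evenly spaced, with the distance of each midpoint from that of APOE under its name, in K562 (top) and THP-1 (bottom); bars are exact 95% counting intervals and genes at or under 3 counts in both libraries are named without a point. In K562 APOE has the highest point (1.26), though its bar overlaps those of ZNF296 and RELB. In THP-1 APOE (1.77), APOC2 (1.37) and BCL3 (1.49) stand above the rest, while APOC1 beside APOE does not.

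LPL, the enzyme that releases fatty acids from circulating triglyceride (ENSG00000175445, chromosome 8, 19901717 to 19967259, plus strand), did not move with its cofactor. In THP-1 it had 172 and 139 counts, or 8.34 and 7.84 CPM, a ratio of 0.948 (interval 0.753 to 1.19, adjusted p = 0.735, exact binomial test). The log2 fold change of APOC2 in these libraries was greater by 1.44 (interval 1.11 to 1.78). In K562, LPL fell from 16 to 4 counts, a ratio of 0.246 (interval 0.0597 to 0.761, adjusted p = 0.0124, exact binomial test). With an assumed dispersion of 0.04 between replicates the adjusted p was 0.173.

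PLIN2, the coat protein of cytosolic lipid droplets, was expressed in both lines, with a DMSO level in THP-1 of 0.627 times that in K562 (ENSG00000147872, chromosome 9, 19108375 to 19149290, minus strand). It rose in THP-1 from 627 to 1233 counts, or 30.4 to 69.6 CPM, a ratio of 2.31 (interval 2.09 to 2.54, log2 fold change 1.21, adjusted p = 5.60e-68). The K562 counts were 864 and 1373, or 52.7 to 82.9 CPM, a ratio of 1.56 (interval 1.43 to 1.70, log2 fold change 0.64, adjusted p = 2.20e-24, exact binomial test), below the threshold. The log2 fold change was larger in THP-1 by 0.56 (counting interval 0.38 to 0.75).

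CES1, a carboxylesterase known to hydrolyse cholesteryl esters and triglyceride in monocytes and liver (ENSG00000198848, chromosome 16, 55802851 to 55833337, minus strand), went in THP-1 from 3306 to 5160 counts, or 160 to 291 CPM. The ratio was 1.83 (interval 1.75 to 1.91, log2 fold change 0.87, adjusted p = 1.73e-165, exact binomial test), under 2-fold although far outside counting error. In K562 it had 2 and 5 counts. After APOC2 it had the highest level per kilobase of the 10 genes in THP-1, at 73.6 and 133.7 CPM per kilobase. CES1P1, a nearly identical pseudogene, was not analysed here, and reads shared between them are uncertain. The other carboxylesterases did not share its direction: CES3 fell in both lines (121 to 61 counts in K562, 635 to 228 in THP-1) and CES5A in K562 (15 to 2), while CES2 went from 1065 to 590 and from 1634 to 866 and CES4A from 66 to 29 in THP-1, under the threshold.

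The untreated lines differed widely in these genes. Between the DMSO libraries, 6 of the 10 genes were called higher in THP-1 and 2 lower, where 21.7% of 16431 tested genes were called higher and 19.5% lower. APOC2 (1748 counts against 1) and CES1 (3306 against 2) had ratios of 1510 (interval 271 to 59660) and 1427 (interval 395 to 11790). ABCA1 had a ratio of 326 (interval 90.1 to 2700) and LPL of 9.28 (interval 5.56 to 16.6). Against a floor of 3 counts in K562 DMSO, PPARG was at least 29.4-fold and ABCG1 at least 5.47-fold higher in THP-1. APOE and APOC1 were instead lower in THP-1, with ratios of 0.0552 (interval 0.04003 to 0.0744) and 0.0710 (interval 0.0567 to 0.0881), and PLIN2 (0.627) and NR1H3 (1.89) differed by less than 2-fold. Line and library cannot be told apart here.

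The genes of the same pathways did not all follow the 10 genes. The LXR partners showed no call in THP-1. NR1H2, which encodes LXR beta, went from 747 to 864 counts there and from 476 to 945 in K562 (log2 fold change 0.44 and 0.96), and RXRA, the common partner, from 2603 to 2747 in THP-1 (0.31) and from 935 to 2116 in K562, where it was called higher (1.15). The other 5 of these 8 partners and cofactors with counts were called in neither line, and RXRG had 0 counts. Of 12 further LXR target genes, 11 were tested in THP-1, where 1 was called higher and 3 lower. Among all tested genes there, 8.28% were called higher and 9.76% lower, so the 1 higher lies near its share. SMPDL3A, a phosphodiesterase, rose from 135 to 237 counts (1.04), while SCD fell from 12782 to 3759 (-1.54), FASN from 13196 to 3984 (-1.50) and CD5L from 17 to 2. SCD and FASN make fatty acids and are driven by SREBP factors as well. SREBF1, the gene through which LXR is known to act on them, went from 1874 to 1140 counts (-0.49), under the threshold. The median of this list was -0.33 in THP-1 over 10 genes with more than 3 counts and 0.63 in K562 over 8, where MYLIP, a ligase that degrades the LDL receptor, rose from 982 to 2272 counts (1.18).

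The cholesterol synthesis and uptake genes that SREBP2 drives fell in THP-1 for the most part. All 9 with counts had a negative log2 fold change and 6 of them were called lower, with a median of -1.33. SQLE, the squalene epoxidase of the pathway, fell from 5459 to 1483 counts (-1.65), DHCR7 from 805 to 188 (-1.87) and LSS from 1168 to 369 (-1.43). In K562 all 10 were positive and 4 were called higher, with a median of 0.88. The shares over all tested genes were 9.76% called lower in THP-1 and 8.18% called higher in K562. INSIG1, which holds SREBP factors in the endoplasmic reticulum, rose from 1805 to 4949 counts (1.43), HMGCS1 from 1449 to 3944 (1.42) and LSS from 1401 to 3176 (1.15). The difference between the lines has no replicate test.

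Among 10 known PPARG targets, of which 8 were tested in K562, 3 were higher in THP-1 and 4 in K562, and none was lower. All tested genes gave 8.28% called higher in THP-1 and 8.18% in K562. FABP4, a fatty acid carrier that marks macrophages and adipocytes, rose in THP-1 from 3 to 62 counts (4.54) and had 0 counts in K562. CD36, the fatty acid and oxidized LDL receptor, rose in THP-1 from 616 to 2162 counts (2.04) and in K562 from 35 to 218 (2.61). PDK4, a brake on pyruvate oxidation, rose from 129 to 406 in THP-1 (1.88) and from 427 to 2264 in K562 (2.38), where PPARG itself had 0 counts. ANGPTL4 (1.12) and CPT1A (1.03) were called in K562, while ADIPOQ and LEP, markers of adipocytes, had at most 1 count in any library. The median was 0.08 in THP-1 over 8 genes and 1.03 in K562 over 7. FABP5 had 970 and 430 counts in THP-1 (-0.94), and ACADVL, CREG1 and CPT1A had log2 fold changes of 0.05, 0.11 and -0.09 there.

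Lipid droplet genes other than PLIN2 showed 3 higher and 1 lower of 18 in THP-1 and 4 higher and 2 lower of 17 in K562. Beside them, 8.28% of all tested genes were called higher and 9.76% lower in THP-1, and 8.18% and 10.1% in K562. G0S2, an inhibitor of the triglyceride lipase PNPLA2, fell from 479 to 24 counts in K562 (-4.34) and rose from 48 to 237 in THP-1 (2.53), and MGLL, a monoglyceride lipase, fell from 49 to 17 and rose from 11 to 48. DGAT1, which makes triglyceride, rose in K562 from 477 to 1400 counts (1.53) and went from 1914 to 982 in THP-1 (-0.73), and ABHD5, the activator of PNPLA2, rose in K562 from 1164 to 2987 (1.33). PNPLA2 itself rose in K562 from 765 to 1663 counts (1.09) and had 1286 and 1909 in THP-1 (0.80). CIDEB fell in THP-1 from 459 to 173 counts (-1.18), and HSD17B13 rose from low levels in both lines (3 to 26 and 11 to 23). PLIN3, the other widely expressed droplet coat gene, changed by 0.04 in K562 and 0.21 in THP-1. The medians were near 0 in both lines, at 0.02 in THP-1 and 0.06 in K562.

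Of the receptors that bring lipoproteins in, CD36 was the only called rise in THP-1, and LRP8 fell from 3881 to 1202 counts (-1.46) and MARCO from 22 to 6. In K562, LRP1 rose from 121 to 472 (1.94) and VLDLR fell from 104 to 12 (-3.13). Among 12 cholesterol trafficking genes, NPC2, which carries cholesterol out of lysosomes, rose in both lines (717 to 1719 counts in K562, 1.24; 1204 to 2492 in THP-1, 1.28), and in THP-1 CYP27A1 rose from 30 to 55 (1.10) and ABCA2 fell from 4656 to 1478 (-1.42). ABCA5 fell in K562 from 65 to 32 (-1.05). LMF1, the factor that folds lipoprotein lipase, rose in both lines (67 to 266 counts in K562, 104 to 183 in THP-1), whereas SEL1L, a partner in lipase folding, fell in K562 from 4630 to 1233 (-1.94), and LIPG, a lipase of endothelium, fell in both from low levels (13 to 3 and 11 to 2). GPIHBP1, which anchors the enzyme, had 0 counts. Among 16 other apolipoprotein or receptor genes, 13 were tested in K562 and 8 in THP-1. In each line 1 was called, APOL3 in K562 (29 to 109 counts, 1.88) and APOBR in THP-1 (963 to 1691, 1.04). That is near the shares of all tested genes called higher, 8.18% in K562 and 8.28% in THP-1.

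**Figure D4:**
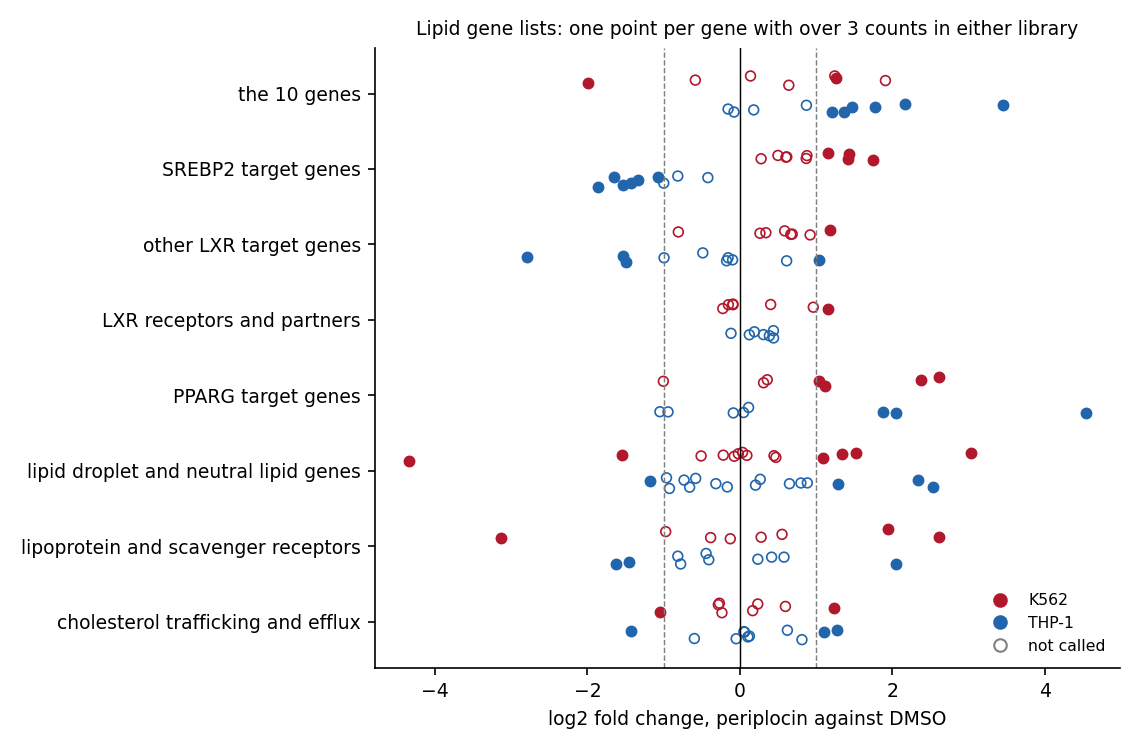
Log2 fold change of periplocin against DMSO for the 10 genes and for 7 lists of related genes, 1 point per gene with more than 3 counts in either library of a line (red, K562; blue, THP-1; filled, called; open, not called), with dashed lines at a 2-fold change. SREBP2 targets lie wholly below 0 in THP-1 (median -1.33) and wholly above 0 in K562 (median 0.88), while 6 of the 10 genes lie above 1 in THP-1.

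The treatment effect that the lines share was fitted over the 4 libraries with line and treatment as terms, where the error is how far the lines disagree (1 residual degree of freedom). In edgeR's quasi-likelihood test, 0 of 13584 genes (0.0%) had an adjusted p under 0.05 and 1538 had an unadjusted p under 0.05, while DESeq2 called 126. None of the 10 genes was called by either tool. APOE had the smallest unadjusted p of the 10, at 0.00353 (adjusted p = 0.355, log2 fold change 1.504, edgeR). For ABCG1 and PPARG, with 0 counts in K562, the fitted value comes from THP-1 alone. APOC2, ABCA1 and CES1 had at most 8 counts in either K562 library, so their fitted values (1.38, 1.56 and 0.94 in edgeR) rest mostly on THP-1. With a dispersion of 0.16 assumed between replicates, none of the 10 genes was called in either line, and ABCG1 came nearest at an adjusted p of 0.0574 in THP-1 in edgeR's exact test.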

How the data were processed

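Poly-A RNA of K562 and THP-1 cells was sequenced as paired-end reads, 1 library per condition. The authors deposited an expected count (an estimated count that need not be whole) per gene and library, not normalized. The submitters' processing notes name HISAT2, StringTie 1.3.1 and hg38, and the annotation release and counting program are not given in the sources used here. Expected counts were rounded. Symbols were found for 20310 of 20348 genes by Ensembl identifier, and positions and lengths come from GENCODE release 29 on GRCh38. CPM were taken over library totals, and CPM per kilobase over the longest annotated coding transcript.

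Within each pair of libraries, TMM factors were computed with edgeR 4.0.16 (R 4.3.3), and its binomial test (the exact test at a dispersion of 0) was run on genes with at least 1 count, with Benjamini-Hochberg adjustment over all of them and a prior count of 0.125 in log2 fold changes. Ratios carry exact 95% conditional binomial intervals. Differences between log2 fold changes carry normal counting intervals. Estimated counts are not independent molecules, and intervals leave out variation between cultures. A floor of 3 counts was used. The shared fit kept genes that reached 10 counts in 2 or more libraries, with DESeq2 1.42.0 as alternative. The 10 genes and 11 lists with 5 marker lists were chosen with earlier results of these data known. Named genes are all members, NR1H2, RXRA and SREBF1, all carboxylesterases and cluster neighbours, and up to 4 called genes a line per list with a mean of at least 1 CPM, largest change first. Some genes that this rule names are not reported here. CD5L, MARCO, LIPG, PNPLA2, HSD17B13, PLIN3, FABP5, ACADVL, CREG1, APOC4-APOC2 and the single marker genes were chosen after their values were seen. On simulated counts, 200 of 200 changed genes were recovered in K562 (15543 genes) and 198 of 200 in THP-1 (15705 genes). These counts were drawn with counting error only, and changes larger than the 2-fold threshold were planted in genes that were not low in counts. The simulation therefore checks that the code runs as meant and cannot speak to spread between cultures, changes near 2-fold or genes with few counts.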

Additional observations from a re-analysis of the deposited data

Results flagged for a closer look

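Genes of the 11 lipid-related lists that were called in both lines but in opposite directions are given here, without the marker lists, and the differences have no replicate test because each line has 1 library per condition. Among these genes G0S2 had the widest gap, with a log2 fold change greater in THP-1 than in K562 by 6.87, followed by MGLL, greater by 3.89. INSIG1 and LSS, both SREBP2 targets, had THP-1 minus K562 differences of -2.76 and -2.59. None of the 10 genes was called in opposite directions.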

How the results depend on the processing

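Under DESeq2 size factors, total counts, TMM over 4 libraries, no filter and a prior count of 2, each of the 10 genes that had a value in a comparison kept its direction and whether it was called. ABCG1 and PPARG have no value in K562, and with a prior count of 2 the log2 fold change of CES1 in K562, called in neither setting, went from 1.24 to 0.79, as did that of APOC2 (at most 3 counts) from above 1 to below it. In K562 the count of called members, 2 in the main test, was 1 with a filter at 1 CPM, 1 with a dispersion of 0.04 (LPL lost in both), 0 with a dispersion of 0.16 and 0 with a 4-fold threshold. In THP-1 the count of 6 was 0 with a dispersion of 0.16 and 2 with a 4-fold threshold (ABCG1 and PPARG), and stayed 6 with a dispersion of 0.04. Over all genes the calls in K562 were 1728 at a dispersion of 0.04, 100 at 0.16 and 960 with a 4-fold threshold, and in THP-1 1622, 88 and 969. Between the DMSO libraries they were 3359 at a dispersion of 0.16 and 4258 with a 4-fold threshold. A DR4 match at 3 mismatches was found in 4 of the 17 promoter windows, for 4 of 7 genes, beside 18.6% of all windows. At 2 mismatches it was found in 2 of the 17, for 2 genes, beside 2.34% of all windows. Summing APOC2 with APOC4-APOC2, an alternative chosen after seeing the data, gave a log2 fold change of 1.19 in THP-1. No replicates could be paired within a line, because each condition has 1 library. The fit over 4 libraries with line as a term called 0 genes in edgeR's quasi-likelihood test (1538 at an unadjusted p under 0.05) and 126 in DESeq2. With 1 library a condition, the spread between cultures is unknown, and in K562 5 of the 10 genes had at most 8 counts in either library, where a 2-fold change is not detectable at this depth.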
